A study of Mus musculus with 16 samples.

Results

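The aquaporins are described here as a gene family across cultured mouse colon epithelium. The members were 8 genes fixed by name, Aqp1, Aqp3, Aqp4, Aqp5, Aqp7, Aqp8, Aqp9 and Aqp11, out of 54123 genes that could be summed from the deposited transcript tables, and each was read in all 16 libraries. Every library was made from organoids, which are balls of epithelium grown in a gel, from the first 1 cm (proximal) or the last 1 cm (distal) of the colon of 2 female mice aged 8 weeks. All the mice carried a Cre-inducible BrafV600E allele (change V600E) and a tdTomato reporter, both heterozygous, and the labels of these libraries name no Cre. The organoids received a lentiviral Scramble-sgRNA or Cdx2-sgRNA, the latter directed at Cdx2, a homeobox transcription factor of the intestine, followed by 2 weeks of antibiotic selection. Each Cdx2-sgRNA culture descends from 1 cell in which both alleles had lost their reading frame, and no cloning is described for Scramble-sgRNA, so the loss of Cdx2 and the choice of a clone cannot be told apart. At 4 months, all cultures were kept for 2 days in medium with Wnt3a, EGF, Noggin and R-spondin 1 (WENR-plus) and for 3 more days with these factors or without them (WENR-minus), which gave 8 groups with 2 libraries each. The replicate number was read as the mouse.

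Aquaporins are membrane channels that assemble as tetramers, each subunit with a pore of its own, and let water follow the salt that epithelial cells pump. Aqp1, Aqp4, Aqp5 and Aqp8 are water channels, Aqp3, Aqp7 and Aqp9 are aquaglyceroporins that also pass glycerol, and Aqp11 is a distant member that resides in internal membranes. In the colon, Aqp8 is known from the absorptive surface cells, Aqp3 and Aqp4 from the basolateral membrane, and Aqp1 from blood vessels, whereas Aqp5 is best known from salivary, lacrimal and gastric glands.

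Total counts ran from 12465194 to 18922143 per library (median 16836530). Cdx2 RNA was at 127 to 203 CPM (counts scaled to library size by the TMM method) in proximal Scramble-sgRNA and 29.9 to 73.9 in proximal Cdx2-sgRNA libraries, but at 67.9 to 112 and 50.2 to 126 in the distal ones. Frameshifted RNA can still be counted, so its level does not test the edit. Of 9 markers of colon epithelium all were above 1 TPM (transcript abundance scaled for length and library size) in 6 groups and 8 in the proximal Cdx2-sgRNA groups. The 10 markers of differentiated colonocytes summed to 11700 to 14500 TPM in proximal Scramble-sgRNA and 1020 to 1980 TPM in proximal Cdx2-sgRNA libraries in WENR-minus, and the 8 goblet cell markers to 7560 to 10100 and 48.3 to 145 TPM. In bulk RNA, fewer cells of a type and less RNA per cell cannot be told apart, and the part of these cell types in the results below was not tested. In the tests, 15289 genes had enough counts, including 7 of the 8 members. Aqp3, Aqp4, Aqp5 and Aqp7 held most of their reads in 1 to 3 groups and entered the test through them.

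The leading aquaporin differed between region, guide and medium when levels were compared per length, as the share of each gene in the summed TPM of the 8. In WENR-minus, Aqp8 took 99.0% and 99.0% of that sum in the distal Scramble-sgRNA libraries, 99.7% and 99.8% in the distal Cdx2-sgRNA libraries, and 92.6% and 61.2% in the proximal Scramble-sgRNA libraries. In proximal Scramble-sgRNA organoids kept in WENR-plus, Aqp1 led with 63.9% and 71.7%. In proximal Cdx2-sgRNA organoids, Aqp5 led in WENR-plus with 89.9% and 74.8%, and in WENR-minus Aqp5 and Aqp3 shared the lead, with 49.1% and 41.4% for Aqp5 and 46.6% and 52.5% for Aqp3. The distal WENR-plus libraries were mixed, with Aqp4 at 38.4% and 60.7% and Aqp8 at 49.8% and 17.0% in Scramble-sgRNA, so that each led in 1 library, and Aqp8 at 52.4% and 35.8% in Cdx2-sgRNA. The sum itself was 1663 to 3019 TPM in the 4 distal WENR-minus libraries and 30.2 to 403 TPM in the other 12.

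**Figure D1:**
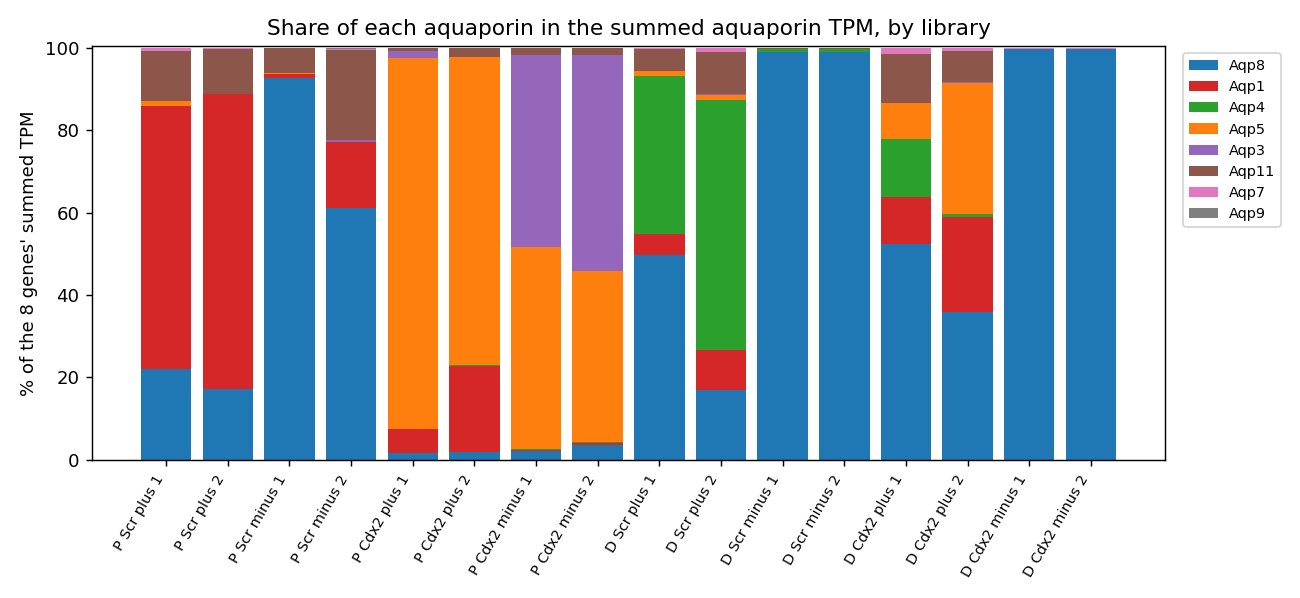
Share of each of the 8 aquaporins (colors) in their summed TPM, in percent, for each of the 16 libraries (P, proximal; D, distal; Scr, Scramble-sgRNA; Cdx2, Cdx2-sgRNA; plus and minus, the medium; 1 and 2, the replicate). Aqp8 fills 99.0% or more of the 4 distal WENR-minus bars, and Aqp5 and Aqp3 fill most of the proximal Cdx2-sgRNA bars.

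Aqp8, the water channel of the absorptive colonocyte, lies on chromosome 7 at 123462291 to 123468004 of GRCm38, on the plus strand. Its reads ran from 58 to 40379 per library. In distal Scramble-sgRNA organoids it stood at 27.6 and 5.75 CPM in WENR-plus and at 2634 and 1575 CPM in WENR-minus, and in distal Cdx2-sgRNA organoids at 10.9 and 9.47 and at 2606 and 3377 CPM. In both distal cultures all WENR-minus libraries were far above all WENR-plus libraries. The log2 fold change (± SE) was 6.98 ± 0.93 in Scramble-sgRNA (edgeR quasi-likelihood test, Benjamini-Hochberg adjusted p = 0.000211) and 8.20 ± 0.98 in Cdx2-sgRNA organoids (adjusted p = 5.64e-05). The former was 8.56 and 6.34 without WENR-plus replicate 1 and 2. The colonocyte markers moved with it. Their sum went from 1310 to 1530 TPM in WENR-plus to 7300 to 10000 TPM in WENR-minus in distal Scramble-sgRNA and from 1490 to 2150 to 14200 to 15300 TPM in distal Cdx2-sgRNA organoids, and 8 and 7 of the 10 were called higher (medians 3.82 and 4.01), with 0 and 1 lower, where 26.4% and 33.1% of all tested genes were called.

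In proximal Scramble-sgRNA organoids Aqp8 was at 5.07 and 3.67 CPM in WENR-plus and at 104 and 16.9 CPM in WENR-minus. The WENR-minus libraries were both higher, but they lay 6.13-fold apart. The log2 fold change was 3.78 ± 0.83 (adjusted p = 0.00625). It was 1.96 (adjusted p = 0.0692) without WENR-minus replicate 1, 4.62 (adjusted p = 0.0011) without WENR-minus replicate 2 and 3.62 (adjusted p = 0.0558) without WENR-plus replicate 2. In proximal Cdx2-sgRNA organoids Aqp8 was at 4.76 and 4.28 CPM in WENR-plus and at 4.31 and 3.12 CPM in WENR-minus. Here the groups overlapped, and the log2 fold change was -0.29 ± 0.83 (adjusted p = 0.878). The colonocyte markers summed to 1070 to 1110 TPM in WENR-plus and 11700 to 14500 TPM in WENR-minus in the proximal controls, with 8 of 10 called higher (17.0% of all tested genes were called), and to 320 to 375 and 1020 to 1980 TPM in the edited organoids, with 2 called higher (6.40%). The difference between the proximal medium effects, Cdx2-sgRNA minus Scramble-sgRNA, was -4.07 ± 1.15 on the log2 scale (adjusted p = 0.0677). It passed the threshold with the mouse as a block (-3.87, adjusted p = 0.0398), with DESeq2 (-4.09, adjusted p = 0.00746) and without Scramble-sgRNA WENR-minus replicate 2 (-4.91, adjusted p = 0.0146).

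Cdx2-sgRNA changed Aqp8 in proximal WENR-minus organoids by -4.03 ± 0.85 (adjusted p = 0.00436), and both edited libraries were below both controls. It was -2.16 (adjusted p = 0.0446) without Scramble-sgRNA replicate 1 and -4.83 (adjusted p = 0.000744) without replicate 2. In distal WENR-minus organoids the groups overlapped, with a log2 fold change of 0.51 ± 0.71 (adjusted p = 0.703). The difference of these effects, proximal minus distal, was -4.54 ± 1.1 (adjusted p = 0.0171). Without proximal Scramble-sgRNA replicate 1 it was -2.67 (adjusted p = 0.0712), and it also missed the threshold without proximal Cdx2-sgRNA replicate 2 (-4.31, adjusted p = 0.0694) or distal Scramble-sgRNA replicate 2 (-4.22, adjusted p = 0.0761). Between regions, proximal Aqp8 was lower in WENR-minus, by -5.12 ± 0.85 (adjusted p = 0.00456) in Scramble-sgRNA and -9.66 ± 1.05 (adjusted p = 3.51e-05) in Cdx2-sgRNA organoids. The former was -7.00 without proximal replicate 1 and -4.34 without replicate 2. In WENR-plus the region differences were -1.93 ± 0.79 (adjusted p = 0.292) and -1.17 ± 0.79 (adjusted p = 0.283), although no library overlapped. Of the WENR-minus groups, proximal Cdx2-sgRNA had both the lowest Aqp8 and the lowest colonocyte marker sum. Between the control regions in WENR-minus the 2 measures went opposite ways. Proximal Scramble-sgRNA had the lower Aqp8 (104 and 16.9 against 2634 and 1575 CPM) and the higher marker sum (11700 to 14500 against 7300 to 10000 TPM). The part of these markers in the Aqp8 levels was not tested.

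The start of Aqp8 is printed beside that of Aqp3, since Aqp8 fell and Aqp3 rose in the proximal Cdx2-sgRNA organoids in WENR-minus. The windows are 300 bases from RefSeq (GRCm38.p6) that end shortly after the start annotated by RefSeq, which can differ from the GENCODE start given with each gene, read 5′ to 3′ on the gene's strand. Capitals mark TTTAT or its reverse complement ATAAA, letters found in sites bound by CDX factors, searched on both strands. Aqp8 is at chr7:123462044-123462343 on the plus strand and Aqp3 at chr4:41098134-41098433 on the minus strand.
Aqp8: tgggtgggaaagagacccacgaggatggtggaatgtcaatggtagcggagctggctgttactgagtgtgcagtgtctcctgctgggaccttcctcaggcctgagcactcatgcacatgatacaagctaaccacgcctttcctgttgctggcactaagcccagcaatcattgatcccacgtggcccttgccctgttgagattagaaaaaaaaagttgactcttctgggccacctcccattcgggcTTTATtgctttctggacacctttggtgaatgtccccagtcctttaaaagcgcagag
Aqp3: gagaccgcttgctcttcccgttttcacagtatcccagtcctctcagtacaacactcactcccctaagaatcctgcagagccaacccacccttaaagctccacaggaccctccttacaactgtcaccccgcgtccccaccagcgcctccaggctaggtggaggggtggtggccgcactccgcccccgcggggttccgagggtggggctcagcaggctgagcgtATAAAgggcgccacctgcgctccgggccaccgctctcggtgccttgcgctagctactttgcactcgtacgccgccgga
The Aqp8 window holds 1 match, 6 bases before the RefSeq start. The Aqp3 window holds 1 match, 28 bases before its own, which overlaps the letters TATAAA of a TATA box. The windows of Aqp1, Aqp5, Aqp7 and Aqp11 hold none, both windows of Aqp9 hold 1 match each, and 40.0% of 32851 such windows of all genes read hold at least 1 match. Nearly the whole Aqp5 window, both Aqp9 windows and most of 1 Aqp7 window lie inside the gene as GENCODE gives it, and so hold transcribed sequence for its longest transcripts. Other GENCODE transcripts of these genes start within or after the windows, and for those the bases before their start are upstream. A match is a run of letters only, and no match says only that these letters are not in the window.

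Aqp1, a constitutive water channel known from red cells, kidney tubules and capillaries, lies on chromosome 6 at 55336432 to 55348555 (plus strand). It was higher in WENR-plus than in WENR-minus in all 4 cultures, the opposite of Aqp8 in 3 of them. Proximal Scramble-sgRNA libraries held 30.7 and 34.4 CPM in WENR-plus and 2.54 and 9.90 CPM in WENR-minus, with a log2 fold change of -2.38 ± 0.59 (adjusted p = 0.0119). Distal Scramble-sgRNA libraries held 6.01 and 7.42 CPM in WENR-plus and 0.385 and 0.932 CPM in WENR-minus, a change of -3.32 ± 0.73 (adjusted p = 0.00375). No WENR-minus library reached a WENR-plus library of its culture. The first of these calls was lost without WENR-minus replicate 1 (-1.70, adjusted p = 0.0746), and that library and replicate 2 of its group lay 3.9-fold apart for Aqp1, with Aqp8 the higher where Aqp1 was the lower. Without replicate 2 it was -3.61 (adjusted p = 0.0036). The distal change was -2.84 (adjusted p = 0.0432) without WENR-minus replicate 1 and -4.10 (adjusted p = 0.0153) without WENR-minus replicate 2.

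In proximal Cdx2-sgRNA organoids Aqp1 reached its highest level, 39.5 and 85.1 CPM, in WENR-plus, and was at 0.594 and 0.529 CPM in WENR-minus, a change of -6.78 ± 0.77 (adjusted p = 0.00098). In distal Cdx2-sgRNA organoids it was at 5.39 and 13.4 CPM and at 0.254 and 0.251 CPM, a change of -5.18 ± 0.86 (adjusted p = 0.000457), where each WENR-minus library held 3 reads. Without WENR-plus replicate 2 these changes were -6.13 (adjusted p = 0.00925) and -4.34 (adjusted p = 0.00335). The drop was larger in proximal Cdx2-sgRNA than in proximal Scramble-sgRNA organoids, by -4.41 ± 0.92 on the log2 scale (adjusted p = 0.0305). That difference missed the threshold without Scramble-sgRNA WENR-plus replicate 1 or 2 (adjusted p = 0.0944 and 0.0961), Cdx2-sgRNA WENR-plus replicate 2 (adjusted p = 0.0736), or Cdx2-sgRNA WENR-minus replicate 1 or 2 (adjusted p = 0.0514 and 0.109), with values from -4.50 to -3.75, and it was -3.17 (adjusted p = 0.0469) without Scramble-sgRNA WENR-minus replicate 2 and -5.08 (adjusted p = 0.029) without replicate 1.

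Cdx2-sgRNA lowered Aqp1 in proximal WENR-minus organoids by -3.47 ± 0.73 (adjusted p = 0.00441). The value was -2.18 (adjusted p = 0.0405) without Scramble-sgRNA replicate 2 and -4.09 (adjusted p = 0.0015) without replicate 1. In proximal WENR-plus organoids both edited libraries were above both controls, with a log2 fold change of 0.94 ± 0.56 that did not pass (adjusted p = 0.245). In distal WENR-minus organoids the change was -1.37 ± 1.08 (adjusted p = 0.46). Proximal libraries were above distal ones in each of the 4 settings. The log2 difference was 3.22 ± 0.73 (adjusted p = 0.0186) in Scramble-sgRNA WENR-minus and 2.72 ± 0.59 (adjusted p = 0.00631) in Cdx2-sgRNA WENR-plus organoids. In Cdx2-sgRNA WENR-minus it was 1.12 ± 1.09 (adjusted p = 0.413). In Scramble-sgRNA WENR-plus it was 2.28 ± 0.59 (adjusted p = 0.0787), and it passed with the mouse as a block (2.30, adjusted p = 0.0119) and with DESeq2 (2.27, adjusted p = 0.00795). The Scramble-sgRNA WENR-minus call was lost without proximal replicate 2 (1.92, adjusted p = 0.169), distal replicate 1 (2.74, adjusted p = 0.128) or distal replicate 2 (4.00, adjusted p = 0.0739) and in a fit of only the groups compared (3.22, adjusted p = 0.0759), and was 3.83 (adjusted p = 0.00863) without proximal replicate 1. The Cdx2-sgRNA WENR-plus call was lost without distal replicate 1 (2.28, adjusted p = 0.0524) and with only the groups compared (2.78, adjusted p = 0.0507), and was 2.07 (adjusted p = 0.0498) without proximal replicate 2 and 3.56 (adjusted p = 0.0107) without distal replicate 2.

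Of 7 endothelial markers, Emcn and Plvap were at 0 in all 16 libraries, Pecam1 reached at most 0.72 TPM and Vwf 4.49 TPM. Their sum was 1.24 to 4.59 TPM in WENR-plus and 0.375 to 1.43 TPM in WENR-minus libraries, beside 3.53 to 50.2 TPM and 0.103 to 5.87 TPM for Aqp1. Of 5 erythroid markers Hbb-bs and Hbb-bt were at 0 throughout, and the sum stayed at or below 0.447 TPM. Of the 8 stem and crypt bottom markers, all tested, 5 were called lower on withdrawal in proximal Scramble-sgRNA (median -2.62; 17.0% of all tested genes were called in either direction), 5 in distal Scramble-sgRNA (-2.68; 26.4%), 4 in proximal Cdx2-sgRNA (-1.48; 6.40%) and 7 in distal Cdx2-sgRNA organoids (-3.65; 33.1%), and 1, 0, 0 and 1 were called higher. Their summed level ran differently, from 789 to 835 TPM in WENR-plus to 1050 to 1310 TPM in WENR-minus in proximal Scramble-sgRNA, from 681 to 820 to 671 to 823 TPM in distal Scramble-sgRNA, from 1240 to 1360 to 1100 to 1120 TPM in proximal Cdx2-sgRNA and from 657 to 792 to 576 to 684 TPM in distal Cdx2-sgRNA organoids. Of that list Prom1 alone ran from 419 to 1240 TPM over the libraries, and the next highest, Axin2, reached at most 152 TPM. The part of these marker lists in the Aqp1 levels was not tested.

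Aqp4, the basolateral water channel also known from astrocytes and gastric parietal cells, lies on chromosome 18. It was the member with the sharpest regional difference in the controls. Distal Scramble-sgRNA libraries held 90.5 and 91.3 CPM in WENR-plus and 84.3 and 39.9 CPM in WENR-minus, whereas all 4 proximal Scramble-sgRNA libraries held 0 reads. Taking 3 reads over the group as the floor, the proximal level was lower by at least 1146-fold in WENR-plus (adjusted p = 0.0236) and by at least 722-fold in WENR-minus (adjusted p = 0.0119). The WENR-plus call was lost whichever of its 4 libraries was left out (adjusted p = 0.0725 to 0.182), with 0 reads in every proximal library all the same, and the WENR-minus call without proximal replicate 2 (adjusted p = 0.0838). Between the media, distal Scramble-sgRNA Aqp4 differed by -0.55 ± 1.06 (adjusted p = 0.719).

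Among edited organoids, the distal Aqp4 level was lower and uneven. It was 13.1 and 0.952 CPM in WENR-plus, 13.7-fold apart, and 1.69 and 0 CPM in WENR-minus. Against the controls the change was -6.19 ± 1.47 in WENR-minus (adjusted p = 0.0308) and -3.70 ± 1.20 in WENR-plus (adjusted p = 0.486), with all edited libraries below all controls in both media. The WENR-minus call was lost whichever of the 4 libraries was left out. The change ran from -5.19 without Cdx2-sgRNA replicate 2 to -13.05 without Cdx2-sgRNA replicate 1, which leaves the edited library at 0 CPM. The medium change in distal Cdx2-sgRNA organoids was -3.04 ± 1.42 (adjusted p = 0.109), and -3.09 (adjusted p = 0.0113) with the culture as a block; without WENR-plus replicate 2 it was -3.91 (adjusted p = 0.0356).

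Proximal Cdx2-sgRNA libraries did hold Aqp4 reads, 30 and 30 in WENR-minus (2.23 and 1.59 CPM) and 0 and 26 in WENR-plus (0 and 1.38 CPM), where the controls held none. This was at least 21.8-fold higher in WENR-minus, at an adjusted p of 0.0921 (0.0216 with DESeq2). The effect of Cdx2-sgRNA in WENR-minus differed between the regions (adjusted p = 0.0145), upward in proximal and downward in distal organoids. An antisense gene overlaps 7896 bases of Aqp4, and the strand setting of the quantification is automatic.

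Aqp5, the water channel of secretory glands, lies on chromosome 15 at 99590782 to 99594829 (plus strand). It was near 0 in every control library and high in proximal Cdx2-sgRNA organoids. The 4 proximal Scramble-sgRNA libraries held 3, 0, 3 and 0 reads and the 4 distal ones 3 to 7. In proximal Cdx2-sgRNA organoids Aqp5 reached 226 and 103 CPM in WENR-plus (3898 and 1946 reads) and 76.6 and 26.8 CPM in WENR-minus (1032 and 506 reads). The ratio to the controls was 2038 (95% counting interval 697 to 9885) in WENR-plus (adjusted p = 8.02e-05) and 559 (191 to 2715) in WENR-minus (adjusted p = 0.000139). Those intervals cover counting error only. All 3 control reads in each medium came from replicate 1, and the calls held without it (adjusted p = 0.00178 in WENR-plus and 0.00174 in WENR-minus).

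In both edited regions, the WENR-plus libraries held more Aqp5 than the WENR-minus libraries. In distal Cdx2-sgRNA organoids it was at 2.01 and 7.88 CPM in WENR-plus and at 0.508 and 0.0836 CPM in WENR-minus, a log2 change of -4.04 ± 1.05 (adjusted p = 0.00773). The change was -4.63 without WENR-plus replicate 1 and -5.77 without WENR-minus replicate 1. It missed the threshold without WENR-plus replicate 2 (-2.70) or WENR-minus replicate 2 (-3.20). In proximal Cdx2-sgRNA organoids the change was -1.67 ± 0.65 (adjusted p = 0.112), and -1.75 (adjusted p = 0.00271) with the culture as a block. Against Scramble-sgRNA, distal Aqp5 in WENR-plus differed by 4.09 ± 0.95 (adjusted p = 0.143), with both edited libraries above both controls, at 35 and 149 against 7 and 4 reads (adjusted p = 0.0162 with DESeq2). Proximal Cdx2-sgRNA organoids were above distal ones by 5.05 ± 0.76 (adjusted p = 0.000807) in WENR-plus and 7.42 ± 1.00 (adjusted p = 0.000147) in WENR-minus. With 1 library left out, the former ran from 4.37 (adjusted p = 0.00423, without proximal replicate 1) to 6.36 (adjusted p = 0.00175, without distal replicate 2), and was 4.43 (adjusted p = 0.00768) without distal replicate 1. The latter ran from 6.48 (adjusted p = 0.000521, without proximal replicate 1) to 9.15 (adjusted p = 0.00186, without distal replicate 1), and was 6.61 (adjusted p = 0.00283) without distal replicate 2. The effect of Cdx2-sgRNA differed between regions in WENR-minus (adjusted p = 0.0277) and not past the threshold in WENR-plus (adjusted p = 0.0579; 0.00127 with DESeq2 and 0.0363 with length-scaled counts). The former missed the threshold without distal Scramble-sgRNA replicate 1 or 2 (adjusted p = 0.126 and 0.104) or distal Cdx2-sgRNA replicate 2 (adjusted p = 0.0541), and the latter passed without distal Cdx2-sgRNA replicate 2 (adjusted p = 0.0246).

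Markers of other cell types were read in the same proximal organoids. Of 7 enteroendocrine markers, 6 were tested. In WENR-minus 5 were called lower with Cdx2-sgRNA and 0 higher (median -6.83), where 21.2% of all tested genes were called. That list summed to 3.64 to 6.97 TPM in Cdx2-sgRNA and 93.2 to 152 TPM in Scramble-sgRNA libraries. In WENR-plus 3 were called lower and 0 higher (median -3.63), where 15.9% of all tested genes were called. Of 10 gastric pyloric markers, Muc5ac and Gkn1 were at 0 in all libraries. The list summed to 2.89 to 14.6 TPM in Cdx2-sgRNA and 0.985 to 1.3 TPM in Scramble-sgRNA libraries in WENR-minus, and to 0.919 to 21.9 and 9.15 to 10.7 TPM in WENR-plus. Of the 2 tested, Tff1 was called higher in WENR-minus (adjusted p = 0.04, with 0 reads in the controls) and Tff2 lower in WENR-plus (adjusted p = 0.0034, with 0 reads in the edited libraries). The Tff1 call was lost without either control or Cdx2-sgRNA replicate 2 (adjusted p = 0.128 to 0.19), with DESeq2 (0.0576), with length-scaled counts (0.0601) and in a fit of only the groups compared (0.0545). The 5 tuft cell markers summed to 1.53 to 5.05 TPM in Cdx2-sgRNA and 0 to 0.369 TPM in Scramble-sgRNA libraries in WENR-minus, and to 1.39 to 3.43 and 0.0459 to 0.256 TPM in WENR-plus, above the controls in both media. Only 1 of the 5 had a mean above 1 TPM in either Cdx2-sgRNA group. Over all libraries Pou2f3 reached 4.39 and Dclk1 2.75 TPM, but Avil, Trpm5 and Sh2d6 at most 0.783, 0.275 and 0.194 TPM. Only Dclk1 of them was tested, and it was called higher in WENR-plus (5.77 ± 1.45, adjusted p = 0.0169; 0.0531 with length-scaled counts and 0.0535 in a fit of only the groups compared) and not in WENR-minus (adjusted p = 0.714). Of 7 immune markers, 2 were tested, and in WENR-minus Cd68 was called higher (2.99 ± 0.71, adjusted p = 0.00853) and Itgam lower (-2.78 ± 0.80, adjusted p = 0.0222). The calls of Dclk1, Cd68 and Itgam were lost without Cdx2-sgRNA replicate 2 (adjusted p = 0.0539 for Cd68, 0.149 for Itgam and 0.1 for Dclk1), and without Scramble-sgRNA replicate 2 for Cd68 (adjusted p = 0.0675) or replicate 1 for Itgam and Dclk1 (adjusted p = 0.116 and 0.0989). The Itgam call was also lost with only the groups compared (0.0748). The part of these cell types in Aqp5 and Aqp3 was not tested.

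Aqp3, the basolateral aquaglyceroporin of the surface epithelium, lies on chromosome 4 at 41092722 to 41098183 (minus strand). It was nearly confined to proximal Cdx2-sgRNA organoids, as was Aqp5. Those libraries held 122 and 60.1 CPM in WENR-minus (1637 and 1137 reads) and 7.25 and 0.423 CPM in WENR-plus (125 and 8 reads), and the other 12 libraries held 0 to 8 reads. Both WENR-minus libraries were above both WENR-plus ones, although the latter lay 17.1-fold apart, and the log2 fold change was 4.57 ± 0.93 (adjusted p = 0.0118). It was 7.72 (adjusted p = 0.00136) without WENR-plus replicate 1 and 3.65 (adjusted p = 0.0191) without WENR-plus replicate 2. Against Scramble-sgRNA, Aqp3 rose by 9.26 ± 1.27 in WENR-minus (adjusted p = 0.00043), where the controls held 1 and 4 reads, and by 10.34 (adjusted p = 0.00551) without Scramble-sgRNA replicate 2. In WENR-plus, where the controls held 0 reads, it was at least 46.4-fold higher (adjusted p = 0.00836; 0.053 without Scramble-sgRNA replicate 1). Of the 133 reads behind that bound 125 came from replicate 1, and without it the call rests on 8 reads (adjusted p = 0.0307).

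Against distal Cdx2-sgRNA organoids, proximal Aqp3 was higher by 7.15 ± 1.11 in WENR-minus (adjusted p = 0.000503; 6.56 without proximal replicate 1). In WENR-plus the ratio was 66.9 (95% counting interval 18.2 to 558, adjusted p = 0.0116). That call was lost without proximal replicate 1, where the fitted log2 value went from 5.94 to 2.79, or distal replicate 1, where it went to 5.11. Distal Cdx2-sgRNA libraries in WENR-minus held 7 and 8 reads against 1 and 0 in the controls, a ratio of 17.0 (2.62 to 716; adjusted p = 0.272).

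Aqp7, the glycerol channel of fat cells, lies on the same strand of chromosome 4 at 41033074 to 41048139, 44582 bases from Aqp3 with 1 gene between them. It was high in the other region of the edited organoids than its neighbor, distal and not proximal. It was highest in distal Cdx2-sgRNA organoids in WENR-minus, at 4.23 and 5.27 CPM (50 and 63 reads), against 0.516 and 0.265 CPM in WENR-plus (9 and 5 reads). The log2 fold change was 3.59 ± 0.75 (adjusted p = 0.00339; 4.20 without WENR-plus replicate 1). Against distal Scramble-sgRNA in WENR-minus, at 0.385 and 0.287 CPM, it was 3.80 ± 0.78 (adjusted p = 0.0192), a call lost whichever of the 4 libraries was left out (adjusted p = 0.0554 to 0.137).

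All 4 proximal Cdx2-sgRNA libraries held 0 Aqp7 reads and the 4 proximal controls 2 to 5. Its level was lower by at least 2.14-fold in WENR-minus (adjusted p = 0.0354) and by at least 2.23-fold in WENR-plus (adjusted p = 0.0412), calls that rest on 7 control reads in each medium. Both were lost whichever of their 4 libraries was left out (adjusted p = 0.0592 to 0.143 and 0.072 to 0.166), and with DESeq2 (adjusted p = 0.0588 and 0.0657), and the WENR-plus call also with the mouse as a block (adjusted p = 0.055). Against distal Cdx2-sgRNA organoids, proximal ones were lower by at least 51.3-fold in WENR-minus (adjusted p = 0.000275) and by at least 4.64-fold in WENR-plus (adjusted p = 0.0122). The WENR-plus call was lost without distal replicate 1 (adjusted p = 0.0603) or proximal replicate 2 (adjusted p = 0.061). The effect of Cdx2-sgRNA in WENR-minus differed between regions (adjusted p = 0.0071). Of 4 fat cell markers Lep was at 0 throughout and Adipoq reached at most 0.0685 TPM, while Cidec, a lipid droplet protein, ran from 0.357 to 39.6 TPM. The 4 summed to 17.7 to 27.8 TPM in distal Cdx2-sgRNA and 11.3 to 12 TPM in distal Scramble-sgRNA WENR-minus libraries. They reached 11.2 to 16.6 TPM in proximal Cdx2-sgRNA and 16.1 to 39.6 TPM in proximal Scramble-sgRNA WENR-minus libraries, where Aqp7 held 0 to 4 reads. The 8 small intestinal absorptive markers summed to 249 to 352 TPM in distal Cdx2-sgRNA and 96.5 to 103 TPM in distal Scramble-sgRNA WENR-minus libraries, with Fabp1 at 0 throughout and Lct at most 0.0251 TPM. Of the 6 tested, 3 were called higher, Apob, Apoa1 and Apoa4 (list median 2.19; 5.25% of all tested genes were called), and all 3 calls were lost without Scramble-sgRNA replicate 2 (adjusted p = 0.0663, 0.086 and 0.131). The Apoa1 call was also lost without Cdx2-sgRNA replicate 2 (adjusted p = 0.0505), and the Apoa4 call without either Cdx2-sgRNA replicate (adjusted p = 0.13 and 0.0908) or with only the groups compared (0.0788). On withdrawal in distal Cdx2-sgRNA organoids, where Aqp7 rose by 3.59, 5 of the 6 were called higher (median 5.88, with 33.1% of all tested genes called). Their sum there went from 12.5 to 19.1 TPM in WENR-plus to 249 to 352 TPM. In distal Scramble-sgRNA organoids 3 of the 6 were also called higher on withdrawal, from a sum of 20.3 to 33.6 TPM in WENR-plus (26.4% of all tested genes were called), where the Aqp7 change was 0.84 ± 0.84 (adjusted p = 0.462). The part of these markers in Aqp7 was not tested.

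Aqp9, the glycerol channel of liver cells, on chromosome 9 at 71110659 to 71168682, was at 0 reads in 14 libraries and at 1 and 2 reads in the others, and was not tested.

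Aqp11, the endoplasmic reticulum member, lies on chromosome 7 at 97724006 to 97738289 (minus strand) and ran from 1.27 to 7.99 TPM, with reads in every library. In proximal Scramble-sgRNA organoids it was at 8.12 and 6.57 CPM in WENR-plus and 20.5 and 14.3 CPM in WENR-minus, and in proximal Cdx2-sgRNA organoids at 7.66 and 12.6 CPM and at 4.08 and 4.55 CPM. Its level thus moved in opposite directions on withdrawal, by 1.24 ± 0.28 (adjusted p = 0.00743) in the controls and -1.23 ± 0.29 (adjusted p = 0.0177) in the edited organoids. The difference of these effects was -2.47 ± 0.40 (adjusted p = 0.0157).

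The control call of Aqp11 was lost without WENR-minus replicate 1 (0.97, adjusted p = 0.0737) or WENR-plus replicate 2 (1.13, adjusted p = 0.0678). The edited call was lost without WENR-minus replicate 1 (-1.14, adjusted p = 0.0974), WENR-minus replicate 2 (-1.31, adjusted p = 0.065) or WENR-plus replicate 2 (-0.82, adjusted p = 0.148). With counts scaled for transcript length the edited change was -0.34 (adjusted p = 0.676) and the difference -1.69 (adjusted p = 0.143). The difference also missed the threshold without Scramble-sgRNA WENR-minus replicate 1 (adjusted p = 0.0632), WENR-plus replicate 1 (adjusted p = 0.0554) or WENR-plus replicate 2 (adjusted p = 0.0691), or without Cdx2-sgRNA WENR-minus replicate 2 (adjusted p = 0.0524).

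In WENR-minus, Cdx2-sgRNA lowered Aqp11 by -2.01 ± 0.29 in proximal organoids (adjusted p = 0.00043), and by -1.36 (adjusted p = 0.0338) with length-scaled counts. The distal change was -0.97 ± 0.29 (adjusted p = 0.0576), from 10.2 and 8.10 CPM to 4.91 and 4.43 CPM. Distal Scramble-sgRNA libraries overlapped between the media, with 9.71 and 8.50 CPM in WENR-plus. Distal Cdx2-sgRNA libraries held 8.48 and 6.72 CPM in WENR-plus, a medium change of -0.70 ± 0.29 (adjusted p = 0.0654). Proximal controls were above distal controls in WENR-minus by 0.93 ± 0.28 (adjusted p = 0.0588).

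**Figure D2:**
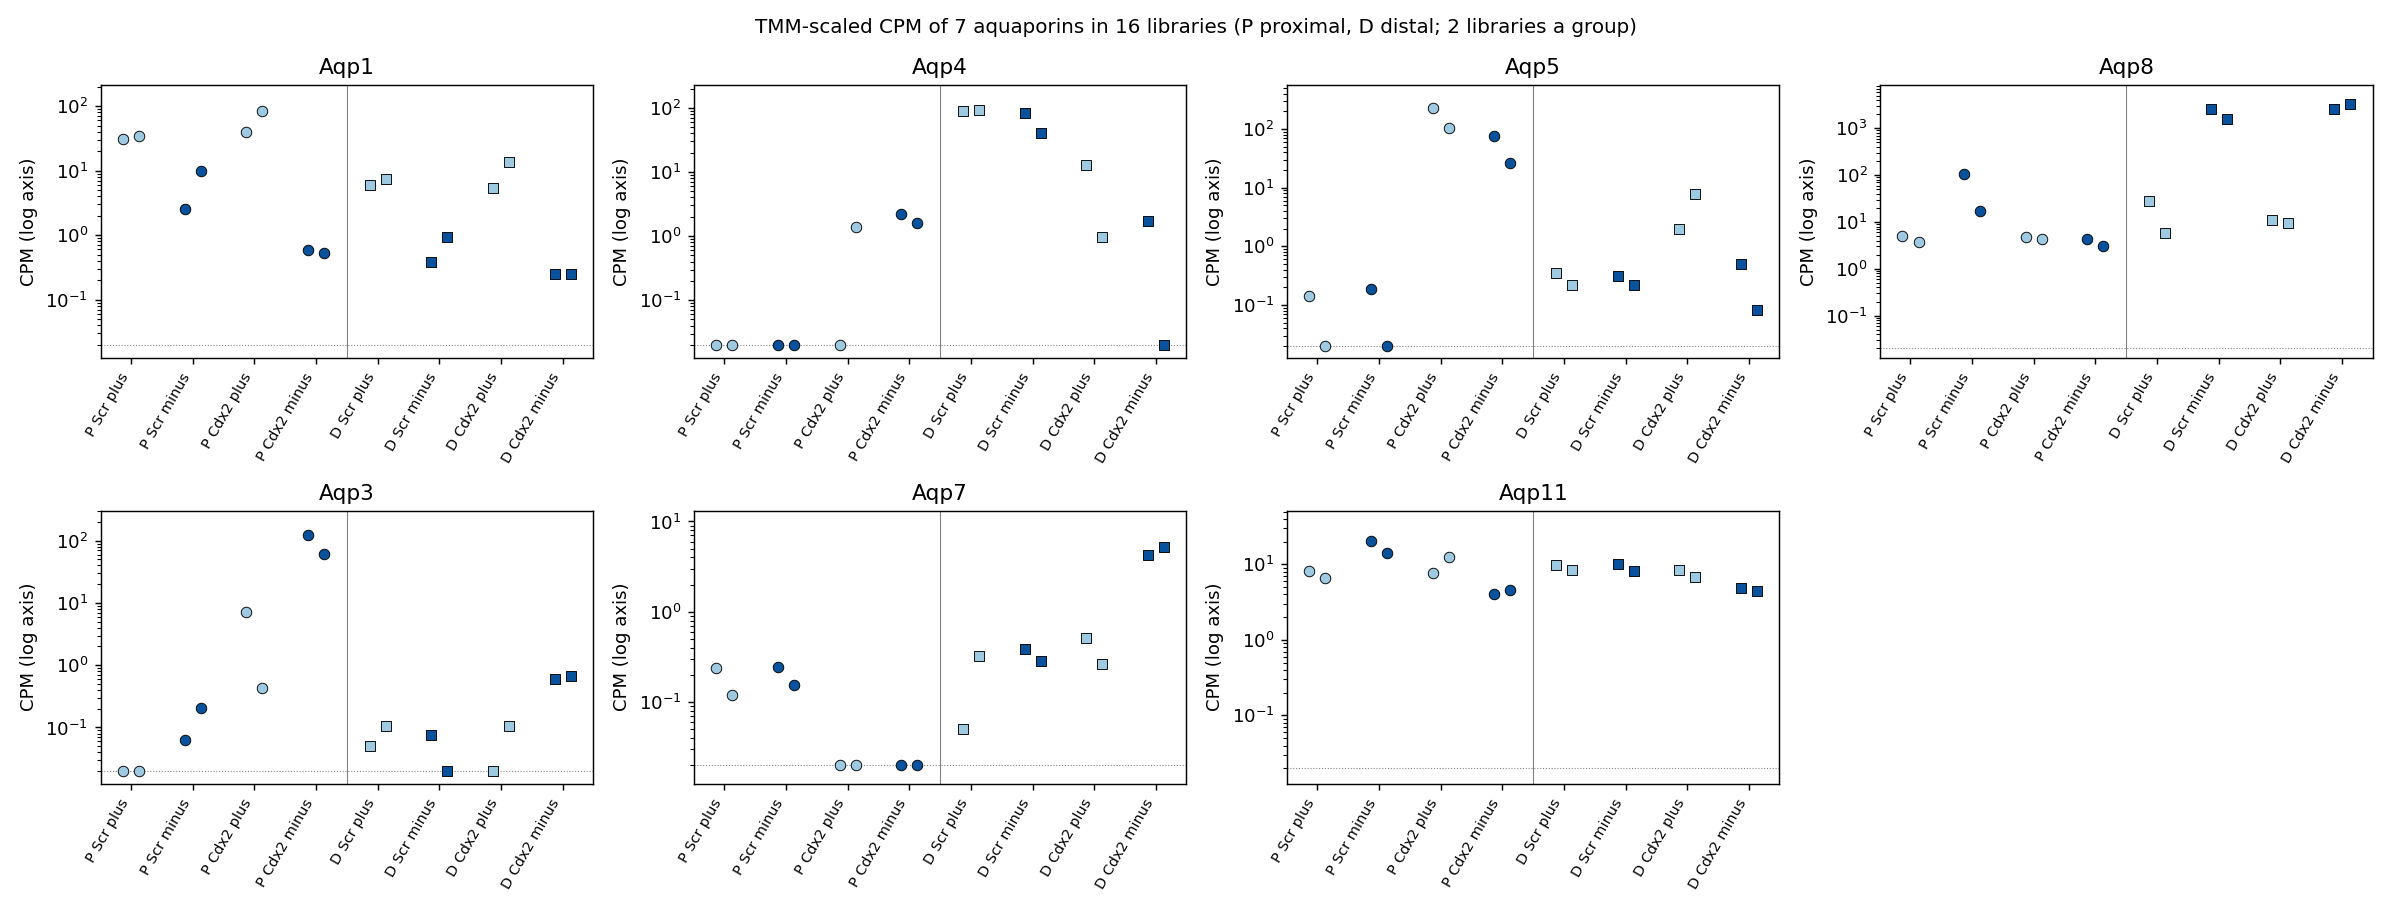
CPM of 7 aquaporins (log axis) in the 2 libraries of each of 8 groups; circles are proximal and squares distal, light points WENR-plus and dark points WENR-minus, and a library at 0 is drawn at 0.02 on the dotted line. Aqp8 peaks in the 4 dark squares (1575 to 3377 CPM), Aqp5 and Aqp3 in the proximal Cdx2-sgRNA columns, and Aqp4 in the distal Scramble-sgRNA columns (39.9 to 91.3 CPM).

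In the order of the group means, neighbors often could not be separated. For Aqp8 the 2 highest groups, distal Cdx2-sgRNA (2992 ± 545 CPM, SD, n = 2) and distal Scramble-sgRNA (2104 ± 749) in WENR-minus, overlapped, as did the 3 lowest, all proximal, between 3.71 and 4.52 CPM. For Aqp1 the order ran from proximal Cdx2-sgRNA (62.3 ± 32.2 CPM) and proximal Scramble-sgRNA (32.5 ± 2.62) in WENR-plus, which did not overlap, to distal Cdx2-sgRNA in WENR-minus (0.252 ± 0.00205). The next 3 groups of that order, from 6.22 to 9.41 CPM, overlapped with their neighbors. For Aqp11 the first group, proximal Scramble-sgRNA in WENR-minus (17.4 ± 4.41 CPM), stood clear of the second, proximal Cdx2-sgRNA in WENR-plus (10.2 ± 3.53), and the last, proximal and distal Cdx2-sgRNA in WENR-minus (4.32 ± 0.33 and 4.67 ± 0.34), overlapped.

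For counts over the comparisons, a call needed an adjusted p under 0.05 together with a log2 fold change over 1 in either direction. Withdrawal of the factors called 3 members in proximal Scramble-sgRNA (17.0% of all tested genes were called), 2 in distal Scramble-sgRNA (26.4%), 3 in proximal Cdx2-sgRNA (6.40%) and 4 in distal Cdx2-sgRNA organoids (33.1%). Aqp1 was called lower in all 4 and Aqp8 higher in 3. Cdx2-sgRNA called 6 of the 7 in proximal WENR-minus (21.2% of all tested genes), 3 in proximal WENR-plus (15.9%) and 2 in distal WENR-minus (5.25%). In distal WENR-plus it called 0 with edgeR (0.262% of all tested genes), with 2 members at an unadjusted p under 0.05 and 1 call by DESeq2. Proximal and distal organoids differed in 3 members in Scramble-sgRNA WENR-minus (6.08%), 1 in Scramble-sgRNA WENR-plus (1.75%), 4 in Cdx2-sgRNA WENR-minus (34.6%) and 4 in Cdx2-sgRNA WENR-plus (17.0%). Fits of only the groups compared lost further calls. For the medium in proximal Cdx2-sgRNA these were Aqp1, Aqp3 and Aqp11 (adjusted p = 0.128, 0.167 and 0.18), for Cdx2-sgRNA in proximal organoids Aqp7 in WENR-minus and WENR-plus (0.18 and 0.19) and Aqp3 in WENR-plus (0.0911), and for the regions in Cdx2-sgRNA WENR-plus Aqp3 and Aqp7 (0.0946 and 0.105). Such fits added Aqp4 for Cdx2-sgRNA in proximal WENR-minus (0.0162) and Aqp1 for the regions in Scramble-sgRNA WENR-plus (0.00991). Aqp3, Aqp4, Aqp5 and Aqp7 were at or near 0 in most groups, and the counts describe the family and do not test it.

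Differences between comparisons were fewer. The Cdx2-sgRNA effect differed between regions in WENR-minus for 4 members, Aqp4, Aqp5, Aqp7 and Aqp8 (14.3% of all tested genes), and the proximal medium effect differed between guides for 2, Aqp1 and Aqp11 (3.60%), both lost with only the groups compared (adjusted p = 0.0951 and 0.0763). In WENR-plus the Cdx2-sgRNA effect differed between regions for 0 members by edgeR (4.98% of all tested genes), with 4 at an unadjusted p under 0.05 and 2 called by DESeq2. The distal medium effect differed between guides for 0 members by edgeR and by DESeq2, with 1 at an unadjusted p under 0.05, and this contrast called 0% of all tested genes. The region effect differed between the media in Scramble-sgRNA for 0 members by edgeR and by DESeq2, with 2 at an unadjusted p under 0.05 (0.0719% of all tested genes).

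**Figure D3:**
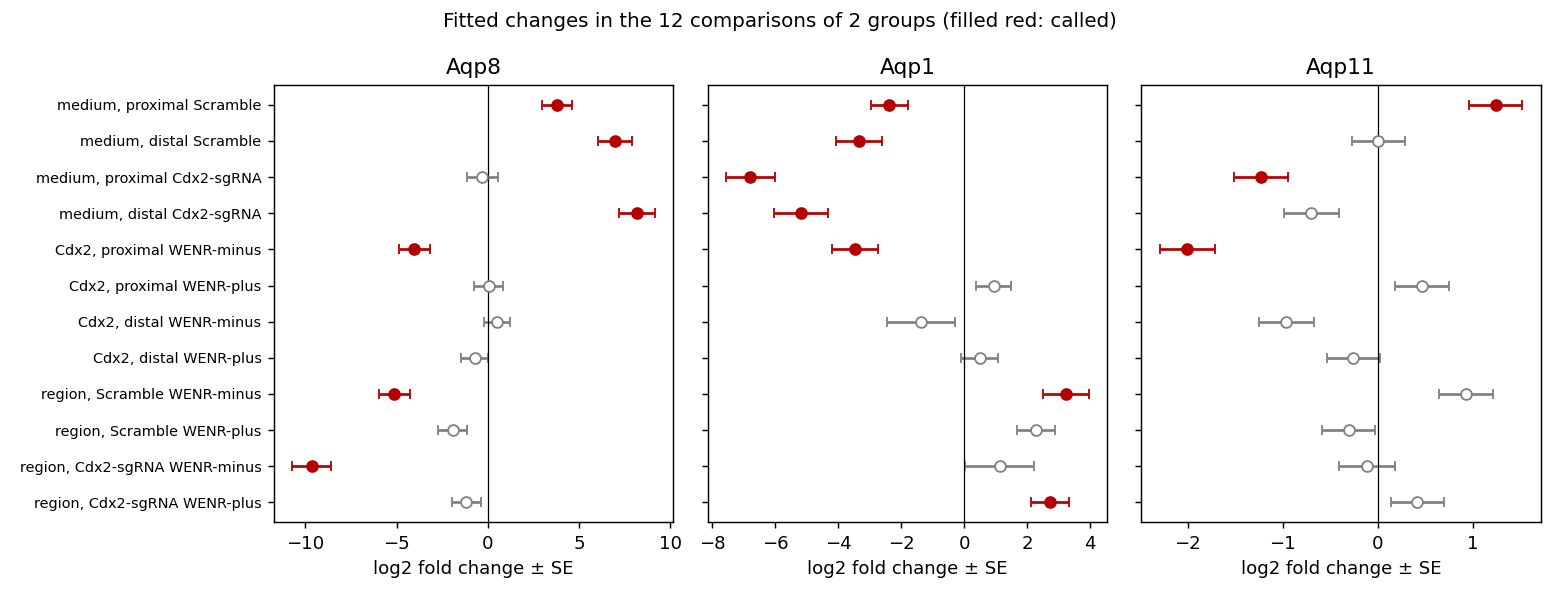
Log2 fold change ± SE of the 3 members with reads in every library, Aqp8, Aqp1 and Aqp11, in the 12 comparisons of 2 groups; medium is WENR-minus minus WENR-plus, Cdx2 is Cdx2-sgRNA minus Scramble-sgRNA and region is proximal minus distal, and filled red points passed the call rule. Aqp1 is negative and called in all 4 medium comparisons, and Aqp8 reaches 8.20 in the distal Cdx2-sgRNA organoids.

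The genes that move the salt which water follows were read from a list of 35, of which 31 were tested; some, such as Slc26a3 and Car4, are also among the colonocyte markers above. On withdrawal of the factors 12 were called higher and 1 lower in proximal Scramble-sgRNA (17.0% of all tested genes were called in either direction), 16 and 3 in distal Scramble-sgRNA (26.4%), 4 and 1 in proximal Cdx2-sgRNA (6.40%), and 14 and 7 in distal Cdx2-sgRNA organoids (33.1%). The list's median log2 fold changes were 0.58, 1.39, 0.25 and 0.58, beside -0.06, -0.11, -0.03 and -0.10 over all tested genes. Slc9a3, the apical sodium and proton exchanger of absorptive cells, rose by 5.11 ± 0.82 in proximal and 7.85 ± 0.91 in distal Scramble-sgRNA organoids (adjusted p = 0.00126 and 0.000107). Of 3 carbonic anhydrases, which supply the protons and bicarbonate for salt uptake, Car1 rose by 5.38 ± 0.42 in proximal controls (adjusted p = 7.02e-05), where the others did not pass, and all 3 were called higher in distal controls, Car4 by 7.73 ± 0.57 (adjusted p = 2e-05). In proximal Cdx2-sgRNA organoids the sodium pump subunit Atp1b1 rose by 1.18 ± 0.22 (adjusted p = 0.00793; 0.0672 without WENR-plus replicate 2 and 0.128 with only the groups compared).

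Against the controls, Cdx2-sgRNA called 4 of the list higher and 15 lower in proximal WENR-minus organoids (median -1.18; 0.00 over all tested genes, of which 21.2% were called), where Aqp8 fell and Aqp5 and Aqp3 rose. Car1 fell there by -8.88 ± 0.50 (adjusted p = 5.49e-07), the chloride channel Cftr by -7.69 ± 0.76 (adjusted p = 3.34e-05) and Slc9a3 by -7.41 ± 0.99 (adjusted p = 0.000253). In distal WENR-minus organoids the counts were 4 higher and 3 lower (median 0.09; 0.00 over all tested genes, of which 5.25% were called), and at most 3 and 1 with any 1 library left out. Atp12a, the colonic proton and potassium pump, rose there by 2.20 ± 0.32 (adjusted p = 0.00413; 0.0509 without Scramble-sgRNA replicate 2). Slc9a3 fell there by -3.28 ± 0.72 (adjusted p = 0.0187), a call lost whichever of the 4 libraries was left out (adjusted p = 0.0538 to 0.116). Between control regions in WENR-minus, 1 was higher and 10 lower in proximal organoids (median -0.50; 6.08% of all tested genes were called), including Atp12a (-7.70 ± 0.42, adjusted p = 4.85e-06), Car4 (-6.76 ± 0.54, adjusted p = 4.88e-05) and Slc26a3, the chloride and bicarbonate exchanger of surface cells (-4.89 ± 0.34, adjusted p = 2.43e-05).

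**Figure D4:**
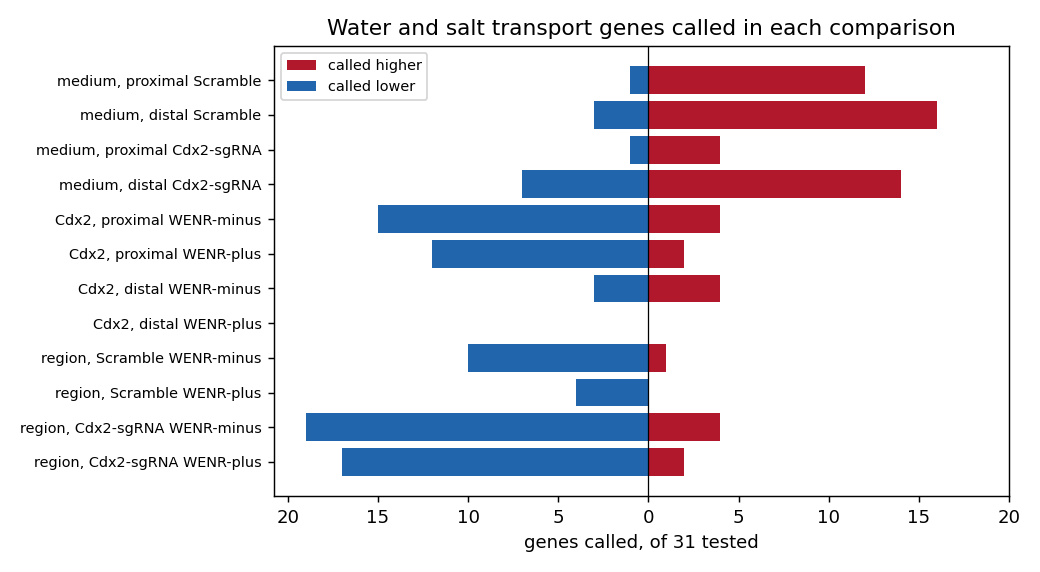
Number of water and salt transport genes called higher (red, right) and lower (blue, left) in each comparison of 2 groups, of 31 tested. The longest blue bars are those of the Cdx2-sgRNA organoids between regions and of Cdx2-sgRNA in proximal WENR-minus, with 15 genes in the latter.

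The list of 16 genes that make, store or release glycerol, the second cargo of Aqp3, Aqp7 and Aqp9, had 5 called higher and 0 lower on withdrawal in proximal Scramble-sgRNA (17.0% of all tested genes were called in either direction), 6 and 1 in distal Scramble-sgRNA (26.4%), 2 and 1 in proximal Cdx2-sgRNA (6.40%), and 8 and 1 in distal Cdx2-sgRNA organoids (33.1%). The list's median log2 fold changes were 0.66, 0.93, 0.70 and 1.22. Dgat2, which closes triglyceride synthesis, rose in all 4, by 1.94 ± 0.22 in proximal Cdx2-sgRNA, a call lost with only the groups compared (adjusted p = 0.128), to 2.85 ± 0.23 in distal Cdx2-sgRNA organoids. Where Aqp3 rose, in proximal Cdx2-sgRNA against Scramble-sgRNA WENR-minus organoids, 1 of the list was higher and 3 lower (median -0.52; 21.2% of all tested genes were called), a share near that over all genes, the former being Gpd1, which makes glycerol 3-phosphate (1.97 ± 0.41, adjusted p = 0.00409). Where Aqp7 rose, in distal Cdx2-sgRNA WENR-minus organoids, glycerol kinase Gk rose by 1.55 ± 0.25 (adjusted p = 0.00535) and the acyltransferase Gpam fell by -1.19 ± 0.33 (adjusted p = 0.0458). The Gk call was lost without Scramble-sgRNA replicate 2 (1.39, adjusted p = 0.0657), and the Gpam call without it (-0.64, adjusted p = 0.347), without Cdx2-sgRNA replicate 2 (-0.83, adjusted p = 0.259) with the mouse as a block (adjusted p = 0.0505) or with only the groups compared (adjusted p = 0.158). Of 16 genes that anchor Aqp4 or sense cell volume, 14 were tested, and 4 were called higher and 1 lower on withdrawal in each of the Scramble-sgRNA cultures, with medians of 0.39 in proximal (17.0% of all tested genes were called) and 0.24 in distal organoids (26.4%). Of these, Dmd, the gene of the membrane scaffold dystrophin, fell by -2.75 ± 0.54 (adjusted p = 0.00194) in distal Scramble-sgRNA organoids.

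Over the 16 libraries, the genes whose log2 CPM followed each member most closely were Acvr1b, Ccdc32 and Ces2a for Aqp8 (Pearson r of 0.982 to 0.98), Ntmt1, Zfp938 and Caprin2 for Aqp1 (0.95 to 0.932), and Aldh3a1, Sftpd and Aox1 for Aqp5 (0.978 to 0.966). For Aqp3 they were Gm12349, Slurp1 and Zfpm2 (0.962 to 0.946), for Aqp7 Gigyf2, Slc46a1 and Dsg4 (0.949 to 0.924), for Aqp4 Lncenc1, Gm37385 and Noct (0.892 to 0.836), and for Aqp11 Zfp78, Eif4e2 and Ssr4 (0.889 to 0.866). Between members, the highest values were those of Aqp8 with Aqp7 (0.753) and of Aqp5 with Aqp3 (0.708), and the lowest that of Aqp8 with Aqp1 (-0.696). These describe 8 groups of 2 libraries, in which groups share cultures and guides.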

How the data were processed

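The 16 RNA-seq libraries of mouse colon organoids (stranded total RNA kit, HiSeq) were analyzed in 8 groups of 2. Each culture gave libraries in both media, and the main fit did not pair them. The authors quantified reads with Salmon on GENCODE vM23 transcripts with an automatic library type, and used tximport and DESeq2; the submitters' processing notes name Salmon 1.1.0, DESeq2 1.32 and build mm10. The deposited estimated counts (expected counts, 1 table per library) are not scaled between libraries, and the deposited TPM values, from the same Salmon run by the authors, are scaled for transcript length and library size.

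Of 140748 transcripts, 139864 matched GENCODE vM21 (GRCm38), an earlier release, and were summed to 54123 genes; 884, with 0.257 to 0.51% of counts, were left out. Counts were rounded. In R 4.3.3, edgeR 4.0.16 kept 15289 genes (filterByExpr), scaled by TMM and fitted 1 coefficient per group to all 16 libraries (glmQLFit, 8 residual degrees of freedom). Contrasts (12 of 2 groups, 5 differences) were tested with glmQLFTest, two-sided, with Benjamini-Hochberg adjustment over all tested genes. Calls required an adjusted p under 0.05 and a log2 fold change over 1 in size. SE is the absolute log2 fold change over the square root of F. A group at 0 reads was set to 3 reads for a bound; at 1 to 3 reads a ratio with an exact 95% binomial interval is given instead of the fitted value.

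The study names 2 independent mice, and the replicate number was read as the mouse. Deviations of same-numbered libraries correlated at -0.0594 to 0.589 over 28 pairs of groups, above 0.1 in 9, and at 0.281 to 0.589 between the media of 1 culture. Replicate libraries differed by more than counting noise (chi-square over degrees of freedom of 28 or more). The p-values are measured against a spread between replicates pooled over all 8 groups, not that of the groups compared alone. Genes named are the 8 members, the 3 genes most like each tested member (mean of at least 1 CPM) and up to 4 called genes of each hand-written pathway list in a comparison, not always those with the largest fold change. The members and lists were chosen with earlier results of these data known. Alternatives were RLE scaling, no filter, DESeq2 1.42.0, a mouse or culture block, only the groups compared, length-scaled counts, no fold threshold, TPM levels, and each library left out; they were run on the list genes as well, a choice made after seeing the data. The fit was tested on simulated data. The values of 1 gene of a pathway list are not reported here.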

Additional observations from a re-analysis of the deposited data

Results flagged for a closer look

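Of the 5 contrasts that subtract a pair of comparisons, 2 called members. In WENR-minus medium the effect of Cdx2-sgRNA differed between proximal and distal organoids for Aqp8, by -4.54 on the log2 scale, and for Aqp4, Aqp5 and Aqp7. For those 3 genes at least 1 of the groups held 3 reads or fewer, so the fitted size depends on the prior count and the edgeR adjusted p is given instead, 0.0145 for Aqp4, 0.0277 for Aqp5 and 0.0071 for Aqp7. Aqp4 and Aqp5 differed upward in proximal organoids, and Aqp7 and Aqp8 downward. In proximal organoids the effect of withdrawing the factors differed between Cdx2-sgRNA and Scramble-sgRNA for Aqp1, by -4.41, and for Aqp11, by -2.47. Of these 6, the calls of Aqp4 and Aqp7 held under every alternative, and those of Aqp1, Aqp5, Aqp8 and Aqp11 were lost when certain single libraries were left out. The groups hold 2 libraries each, too few to look for a library that stands apart within a group.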

How the results depend on the processing

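The 41 member calls of the 17 contrasts kept their direction under every alternative, and 19 of them kept their call under every alternative. With 1 library left out, 55 of 188 values missed the threshold, and under the other alternatives 18 of 258. With each library left out in turn, the number of members called ran from 0 to 3 for the medium in proximal Scramble-sgRNA, 2 to 3 in proximal and 3 to 4 in distal Cdx2-sgRNA; 1 to 2 for Cdx2-sgRNA in proximal WENR-plus and 0 in distal WENR-minus; 1 to 3 for the regions in Scramble-sgRNA WENR-minus, 0 in WENR-plus, and 1 to 5 in Cdx2-sgRNA WENR-plus; and, for the differences, 2 to 4 (regions, WENR-minus), 0 to 1 (regions, WENR-plus) and 0 to 3 (medium, proximal). Fits of only the groups compared, which have fewer residual degrees of freedom, called 0 members for the medium in proximal Cdx2-sgRNA, 1 for Cdx2-sgRNA in proximal WENR-plus, 1 and 2 for the regions in WENR-plus (Cdx2-sgRNA and Scramble-sgRNA), 2 for the regions in Scramble-sgRNA WENR-minus and 0 for the proximal medium difference. Without the filter, members called were 5 for the medium in proximal Cdx2-sgRNA, 5 and 2 for Cdx2-sgRNA in proximal and distal WENR-plus, 3 for the regions in Scramble-sgRNA WENR-plus, and 3 (regions, WENR-plus), 3 (medium, distal) and 1 (medium by region) for the differences; the cause was not tested. DESeq2 called 1 for Cdx2-sgRNA in each distal medium, 2 for the regions in Scramble-sgRNA WENR-plus and 2 for the difference of regions in WENR-plus. Length-scaled counts called 1 in that difference and 1 in the proximal medium difference.

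With the mouse as a replicate block, 2 members were called for the regions in Scramble-sgRNA WENR-plus, and the changes of call named beside Aqp1, Aqp7, Aqp8 and Gpam were the only ones among the values printed; the culture block added the calls named beside Aqp4 and Aqp5. Ranking the groups by TPM in place of CPM gave Spearman correlations of 0.786 (Aqp11) to 1 across the 8 groups for the 8 members. The water and salt transport counts moved most for the medium in proximal Cdx2-sgRNA, from 4 higher to between 0 and 7, and for Cdx2-sgRNA in distal WENR-minus, from 3 lower to between 0 and 6. Depth limits the bounds of genes at 0 reads, which take 3 reads over both libraries of a group as the floor.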

Other observations

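The other annotated mouse aquaporins were close to silent. Aqp2, the vasopressin-regulated channel of the kidney, Aqp6 and the lens channel Mip held 0 reads in all 16 libraries, and Aqp12 held 0 reads in 14, with 2 reads in a distal Scramble-sgRNA and 5 in a proximal Cdx2-sgRNA library, both in WENR-plus.

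The reads of a member were spread unevenly over its annotated transcripts. Of the Aqp8 reads, 44.3% and 11.6% were assigned to its protein-coding transcripts and 44.2% to a processed transcript without a coding sequence. Aqp5 reads were divided among protein-coding transcripts with 36.7%, 27.9%, 24.7% and 4.08%, and 6.39% went to a transcript with a retained intron. Aqp1 reads all went to 1 transcript, and the leading transcript of Aqp3, Aqp7, Aqp4 and Aqp11 took 99.6%, 98.2%, 96.5% and 90.9% of its gene's reads. Shares between transcripts of 1 gene are Salmon's estimates and were summed in every comparison.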
